A study of Oryctolagus cuniculus with 8 samples.

Results

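Ion channel genes were compared between stromal cells of the infrapatellar fat pad (IPFSCs) and stromal cells of inguinal subcutaneous fat (ScASCs) from rabbits. Channel genes were taken by symbol: potassium channels and their partners (KCN), sodium channels (SCN), voltage-gated calcium channels (CACNA, CACNB and CACNG), chloride channels (CLCN and CLIC), transient receptor potential channels (TRPC, TRPM and TRPV), PIEZO, anoctamins (ANO), P2X receptors (P2RX), HCN channels and the volume-regulated LRRC8 family. This gave 157 of the 20586 genes listed, each with its own symbol. The symbols also bring in proteins that bind channels but form no pore themselves, such as the KCNE and KCNAB subunits, KCNRG and TRPC4AP. PIEZO1 was not analysed here.

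The study asked whether adipose stem cells prefer different lineages depending on the depot they come from. Both fat depots were taken from each of 4 New Zealand white rabbits, male and 4 months old, and the cells were grown in serum-containing medium to passage 1. Each cell type gave 4 RNA-seq libraries, 8 in all, and no genotype or treatment separated the groups other than the depot. The cells were selected by tissue digestion and growth on plastic, so each library is a culture that could hold more than 1 cell type.

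Ion channels are membrane proteins that let ions pass down their gradients, and they set the membrane potential, cell volume and calcium entry of a cell. Potassium channels pull the membrane potential towards negative values, voltage-gated calcium channels open when it becomes less negative, and calcium-activated potassium channels close that loop by opening when calcium enters. Mechanosensitive channels such as the PIEZO proteins open when the membrane is stretched, and in cartilage and connective tissue cells PIEZO channels and TRPV4 are known for turning load into calcium signals.

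Values are RPKM, reads per kilobase of gene scaled to the mapped reads of the library, which is a level per length and so can be set side by side between genes. Of the 157 genes, 32 were listed at 0 in all 8 libraries, 125 were above 0 in at least 1 and 70 were above 0 in all 8. Another 81 were above 0 but had a mean of 1 RPKM or less in both cell types. The 44 that remained, 28.0% of the family, averaged more than 1 RPKM in ScASCs, in IPFSCs or in both and were tested. Between 37 and 42 channel genes were above 1 RPKM in any 1 library.

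A few genes held most of the channel RNA. CLIC4, a chloride intracellular channel protein, had the highest level, 210 ± 33.5 RPKM in ScASCs against 204 ± 28.5 in IPFSCs. Here and below ± gives the SD of 4 libraries (n = 4). CLIC1 of the same family followed with 132 ± 46.7 and 159 ± 12.7 RPKM. TRPC4AP, a protein that binds TRPC4 and is not itself a channel, was at 108 ± 7.78 and 99.6 ± 5.83 RPKM. TRPC4 itself was listed at 0 in all 8 libraries. ANO6, a calcium-activated lipid scramblase and ion channel, was at 72.5 ± 12.3 and 78.3 ± 9.91 RPKM, and LRRC8A, the subunit every volume-regulated anion channel needs, at 70.5 ± 7.59 and 59.1 ± 3.76 RPKM. These 5 were the channel genes above a mean of 50 RPKM over all libraries, and 20 were above 10. None of the 5 passed the test between the cell types.

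By class, the chloride channel genes CLCN and CLIC summed to 442 ± 20.9 RPKM in ScASCs and 444 ± 14.2 in IPFSCs. The TRP genes summed to 148 ± 6.67 and 139 ± 6.34, most of it from TRPC4AP, which is not itself a channel (108 and 99.6 RPKM). Pore-forming calcium channel genes summed to 2.54 ± 0.294 RPKM in ScASCs and 6.60 ± 0.616 in IPFSCs. Calcium- or sodium-activated potassium channel genes summed to 9.56 ± 1.48 and 18.0 ± 3.51 RPKM. The 10 sodium channel alpha subunit genes together reached only 0.201 ± 0.0306 and 0.616 ± 0.200 RPKM. Summed over the family, channel RNA was 897 to 955 RPKM in ScASCs and 944 to 986 in IPFSCs.

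**Figure D1:**
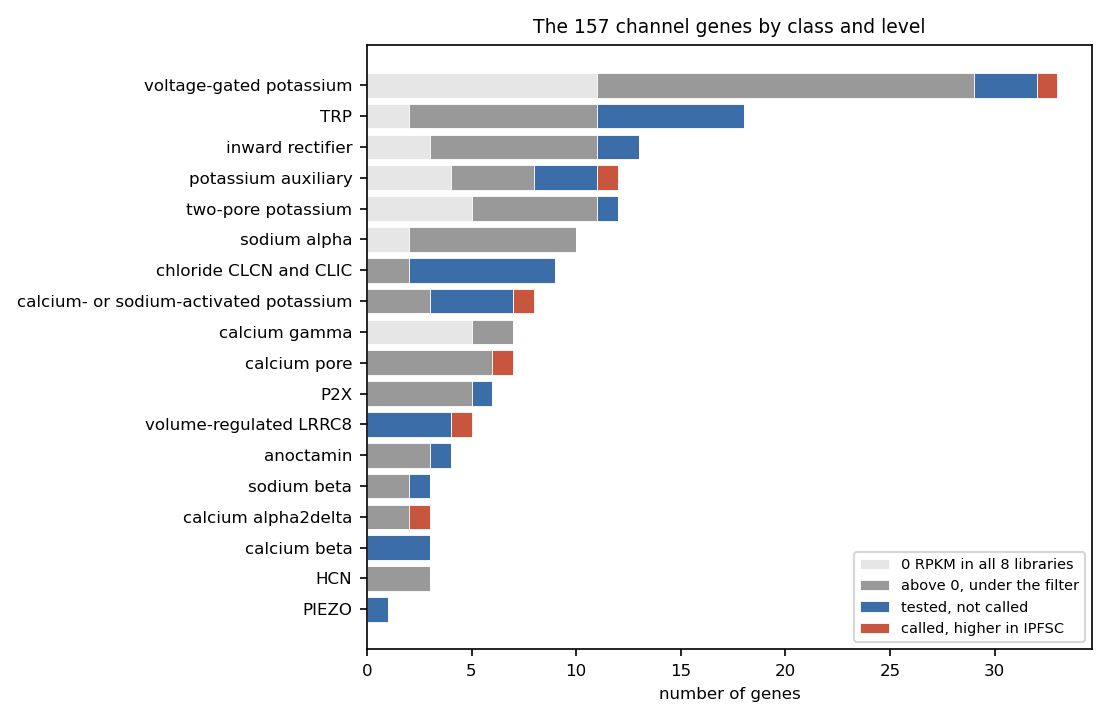
Ion channel genes by class. The bars count the genes of each class that were listed at 0 in all libraries, above 0 but not tested, tested without passing, and called higher in IPFSCs. Of 157 genes, 32 were at 0 in every library, 81 were too low to test, 38 did not pass and 6 were called higher.

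In the comparison of the cell types, 6 of the 44 tested channel genes rose in IPFSCs, none fell and 38 did not pass. The 6 were CACNA1C and CACNA2D1, subunits of voltage-gated calcium channels, KCNMA1, KCNQ5 and KCNE4 of the potassium channels, and LRRC8B of the volume-regulated anion channels. The test was limma on log2(RPKM + 1), 2-sided, with Benjamini-Hochberg adjustment over all 11294 tested genes, and calls were made where the adjusted p was below 0.05. Cell type was its only term, so the donor matching of the depots was not used. A fit that pairs libraries by replicate number is given below. Unless an alternative is named, values come from the fit without pairing. A log2 fold change below is IPFSC over ScASC on that scale, where the added 1 makes differences between low levels look smaller than they are. The 6 are 13.6% of the tested channel genes, and the background over all tested genes was 2.67% called higher and 2.31% called lower. The difference between these shares was not tested. RNA was taken from bulk cultures, so more cells of a type and more RNA per cell cannot be told apart.

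Before adjustment, 14 of the 44 channel genes were higher and 5 lower at p under 0.05, against a background of 8.65% of all tested genes higher and 7.85% lower. The 5 were CLIC2, TRPM6, CACNB3, LRRC8A and KCND3. In 12 genes, 27.3% of those tested, every IPFSC library was above every ScASC library, against a background of 6.07% of all tested genes. In 3 genes, 6.82%, every IPFSC library was below, against 5.73%. When a fold change above 2 was required as well, 4 channel genes were called (CACNA1C, KCNQ5, KCNMA1 and KCNE4), and 1.61% of all tested genes were called higher by that rule. The median log2 fold change of the tested channel genes was 0.15, with quartiles of -0.15 and 0.50. Over all tested genes the median was -0.0035, with quartiles of -0.12 and 0.13. KCNQ5, KCNK1, TRPC6 and KCNN4 were tested only through their IPFSC level, with ScASC means of 0.399, 0.359, 0.289 and 0.383 RPKM. KCND3 was tested only through its ScASC level, with an IPFSC mean of 0.460 RPKM. Such genes enter these tallies by being high in 1 cell type. With a mean above 1 RPKM required in both cell types, 4 of 39 channel genes rose and 0 fell. By that rule 360 of all 10793 tested genes were called in either direction.

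**Figure D2:**
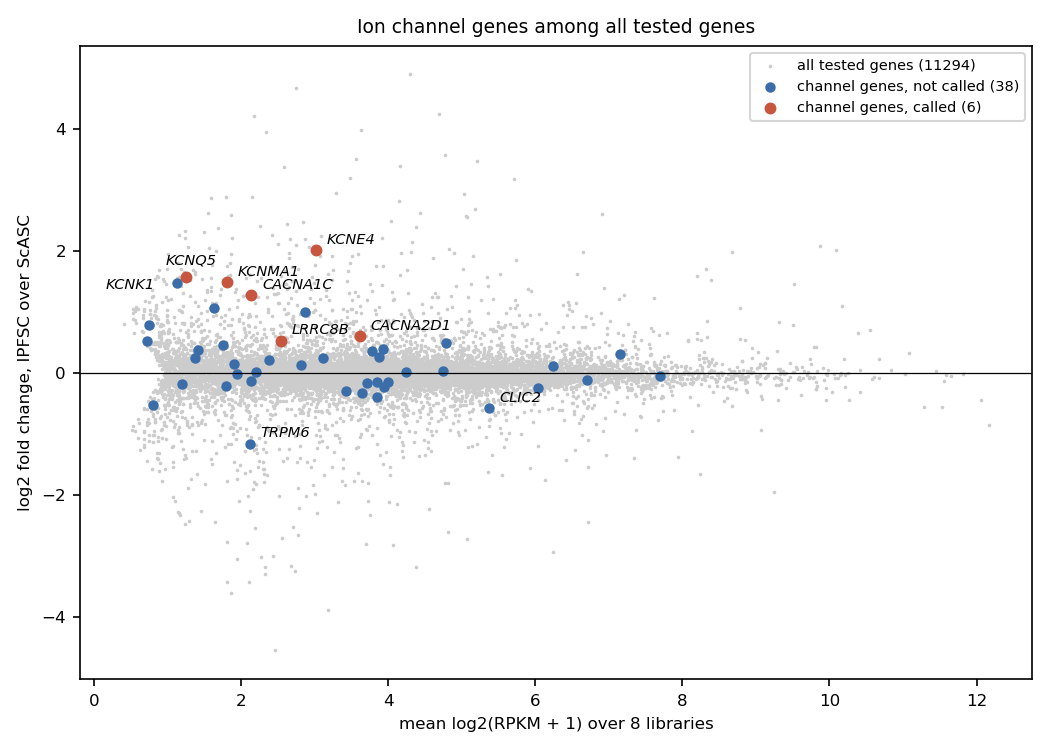
Log2 fold change of IPFSC over ScASC against the mean log2(RPKM + 1) over 8 libraries, for all 11294 tested genes in grey and the 44 tested channel genes in colour. The 6 called channel genes lie above the zero line, from 0.54 for LRRC8B to 2.02 for KCNE4, and 27 of the 44 channel genes have a positive log2 fold change.

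Libraries of the same replicate number deviated together and were taken as pairs, so the comparison was also fitted with the replicate number as a block. With that block 9 channel genes rose and 1 fell, against a background of 4.31% of all tested genes called higher and 3.74% called lower. The 9 were the 6 above with KCNK1 and KCNT2, both potassium channels, and CACNB2, a calcium channel subunit. CLIC2 was the gene that fell.

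Genes of the high-voltage-activated calcium channels gave 2 of the 6 calls. CACNA1C encodes the pore of the L-type calcium channel of heart and smooth muscle. It was at 2.28, 1.70, 1.63 and 1.76 RPKM in ScASC libraries 1 to 4 and at 6.09, 5.58, 5.36 and 6.54 in IPFSC libraries 1 to 4. Every IPFSC library was more than 5 RPKM and every ScASC library under 3. The ratio of the means was 3.20, with a log2 fold change of 1.28 (SE 0.114, 95% interval 1.02 to 1.54, adjusted p = 8.42e-04). It was called under all 14 alternatives tried.

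CACNA2D1 encodes the alpha2delta subunit, which brings calcium channels to the cell surface and is the target of gabapentin. Its ScASC libraries had 9.49, 8.85, 8.59 and 8.93 RPKM and its IPFSC libraries 19.4, 12.1, 13.7 and 12.7. The groups did not overlap, and IPFSC library 1 stood highest. CACNA2D1 rose by 0.61 on the log2 scale (SE 0.140, 95% interval 0.29 to 0.93, adjusted p = 0.0434). This call lay near the threshold. With 1 library left out, the log2 fold change ran from 0.47 to 0.68. The call held without IPFSC library 1 or 2 (adjusted p = 0.0373 and 0.0475). It was lost without ScASC library 1, 2, 3 or 4 (adjusted p = 0.0688, 0.116, 0.103 and 0.102), without IPFSC library 3 or 4 (0.105 and 0.0519), without the filter on low values (0.0633) and with the filter applied to both cell types (0.0558).

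The beta subunits, which sit inside the cell and carry the pore to the membrane, did not pass. Of the 3, CACNB2 had the widest spread within groups, with 20.9, 14.6, 12.4 and 5.89 RPKM in ScASCs and 27.2, 19.1, 16.2 and 8.81 in IPFSCs. The groups overlapped, yet each IPFSC library was above the ScASC library of the same number, and the replicate numbers ranked in the same order in both groups. Its log2 fold change was 0.40 (95% interval -0.51 to 1.31, adjusted p = 0.752), and with the replicate block the adjusted p was 0.0243. CACNB3 had 10.1, 14.3, 14.4 and 13.9 RPKM in ScASCs and 9.71, 10.6, 9.94 and 10.5 in IPFSCs. ScASC library 1 lay among the IPFSC values and the other ScASC libraries above them. The log2 fold change was -0.33 (adjusted p = 0.198), and -0.44 without ScASC library 1, where the call was made (adjusted p = 0.0235). CACNB1 was at 3.60 ± 0.390 and 3.66 ± 0.507 RPKM. Of the 7 pore-forming calcium channel genes only CACNA1C was tested. CACNA1D, another L-type pore, was under 0.07 RPKM in every library, and CACNA1G, a low-voltage-activated pore, was at 0.227 ± 0.0908 and 0.365 ± 0.0682 RPKM.

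Among calcium- or sodium-activated potassium channels, all 5 tested genes had a positive log2 fold change and KCNMA1 was called. KCNMA1 encodes the pore of the large-conductance channel that opens to calcium and to voltage together. Its levels were 1.11, 0.605, 1.78 and 1.00 RPKM in ScASCs and 5.91, 4.66, 4.40 and 4.63 in IPFSCs. The lowest IPFSC library was more than 2 times the highest ScASC library. The log2 fold change was 1.50 (SE 0.177, 95% interval 1.09 to 1.90, adjusted p = 0.00293), and the gene was called under all 14 alternatives.

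The partners of KCNMA1 did not pass. KCNMB1, the beta subunit known from smooth muscle, was at 0.0663, 0, 0 and 0 RPKM in ScASCs and at 0.0720, 0.150, 0.210 and 0.0732 in IPFSCs, too low to test. KCNMB3 was at 3.98 ± 1.40 and 4.67 ± 0.524 RPKM and KCNMB4, the beta subunit best known from brain, at 2.79 ± 1.71 and 3.38 ± 2.23. Their groups overlapped. KCNT2, a sodium-activated potassium channel, had 1.46, 1.68, 0.803 and 0.763 RPKM in ScASCs and 3.61, 4.98, 4.72 and 1.56 in IPFSCs. IPFSC library 4 was the only one of its group inside the ScASC range. The log2 fold change of KCNT2 was 1.07 (95% interval 0.42 to 1.71, adjusted p = 0.0763), and it was called with the replicate block (adjusted p = 0.0257) and without IPFSC library 4 (0.0102). KCNN4, the intermediate-conductance calcium-activated channel, was at 0.383 ± 0.157 and 1.05 ± 0.700 RPKM (log2 fold change 0.52, adjusted p = 0.308).

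Of the 33 voltage-gated potassium channel genes, 11 were at 0 in all libraries and 4 were tested. KCNQ5 encodes a slowly opening channel of the type that carries the M current in neurons and is also found in smooth muscle. It stood at 0.705, 0.229, 0.225 and 0.435 RPKM in ScASCs and at 4.32, 2.98, 2.85 and 2.55 in IPFSCs. The groups lay far apart, with a ratio of means of 7.96. Its log2 fold change was 1.57 (SE 0.174, 95% interval 1.18 to 1.97, adjusted p = 0.00242), and it was called in all 13 alternatives that tested it. KCND3, which carries a fast inactivating current in heart and brain, went the other way, from 0.929, 0.670, 2.12 and 0.939 RPKM in ScASCs to 0.382, 0.370, 0.504 and 0.583 in IPFSCs. The groups did not overlap but the difference did not pass (log2 fold change -0.53, adjusted p = 0.223). KCNA1 was at 12.0 ± 6.13 and 15.2 ± 5.49 RPKM, with overlapping groups.

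KCNE4, a single-span subunit that damps the currents of KCNQ1 and some KCNA channels in expression systems, had the largest log2 fold change of the 44 tested genes with a pseudocount of 1 or 0.5. With a pseudocount of 0.1 it was 2.31, below KCNK1 at 3.08 and KCNQ5 at 2.79. Its ScASC libraries had 2.53, 2.15, 3.57 and 4.18 RPKM and its IPFSC libraries 15.1, 14.0, 10.5 and 24.6. Every IPFSC library was above every ScASC library, and IPFSC library 4 was the highest. The ratio of means was 5.17 and the log2 fold change 2.02 (SE 0.254, 95% interval 1.44 to 2.60, adjusted p = 0.00396). The call held under all 14 alternatives. KCNE1, KCNE2 and KCNE5 were at 0 in all 8 libraries. KCNIP4, a calcium-binding partner of KCND channels, was at 1.35 ± 0.347 and 2.08 ± 0.535 RPKM (log2 fold change 0.38, adjusted p = 0.290), and KCNAB2, a beta subunit of KCNA channels, at 25.6 ± 1.28 and 26.4 ± 3.57.

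**Figure D3:**
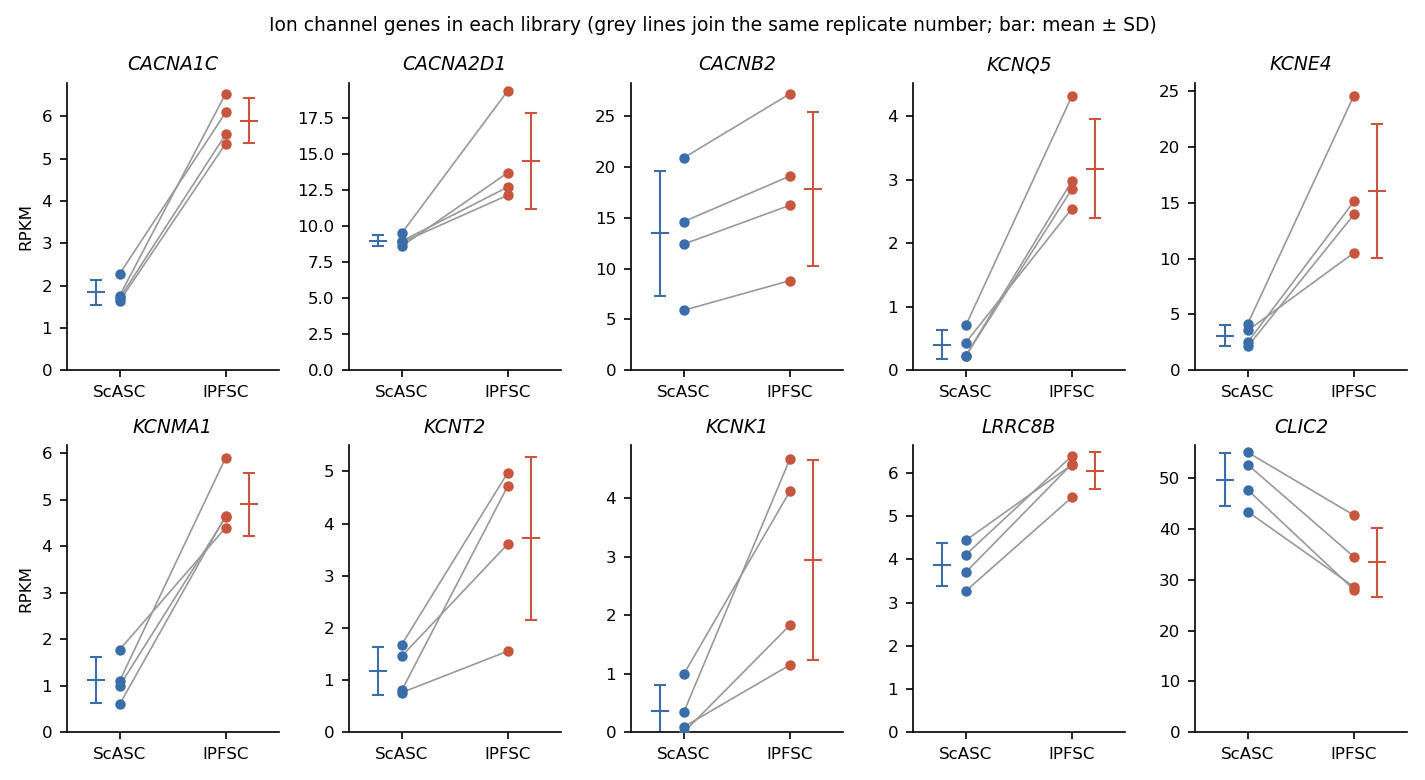
RPKM of 10 channel genes in each of the 4 ScASC and 4 IPFSC libraries, with grey lines joining libraries of the same replicate number and the mean with 1 SD as a bar at the side. Each axis starts at 0, where the lower bar of KCNK1 is cut. CACNA1C, CACNA2D1, KCNQ5, KCNE4, KCNMA1, KCNK1 and LRRC8B show IPFSC libraries above all ScASC libraries, CLIC2 shows them below, and CACNB2 and KCNT2 overlap.

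The inward rectifiers and tandem-pore potassium channels hold the resting potential. KCNJ2, a strong inward rectifier, was the most abundant pore-forming potassium channel gene, with 20.8, 20.0, 26.0 and 22.4 RPKM in ScASCs and 27.1, 30.3, 28.4 and 43.5 in IPFSCs. The groups did not overlap, but the difference did not pass (log2 fold change 0.50, adjusted p = 0.125). KCNJ8, a pore of the ATP-sensitive channel found in vascular smooth muscle and pericytes, was at 16.5 ± 6.05 and 12.5 ± 5.36 RPKM. KCNK1 was the only tested tandem-pore gene. It was at 0.995, 0.345, 0.0953 and 0 RPKM in ScASCs and at 4.12, 4.67, 1.15 and 1.83 in IPFSCs. IPFSC library 3 was just above ScASC library 1, and the other IPFSC libraries were well above.

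For KCNK1 the log2 fold change was 1.48 (SE 0.351, 95% interval 0.68 to 2.28) and the adjusted p 0.0503. It was called with the replicate block (adjusted p = 0.00989), with a pseudocount of 0.5 (0.0452), with median-ratio scaling (0.0471), without ScASC library 1 (0.0389) and without IPFSC library 3 (0.0357). Over all alternatives its adjusted p ranged from 0.00989 to 0.134. KCNK3, KCNK9, KCNK13, KCNK16 and KCNK17 were at 0 in all 8 libraries.

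Several of these genes are known from smooth muscle, so smooth muscle and pericyte markers are given beside them. Of 9 such markers with a symbol in the table, 7 were tested, 2 rose and 1 fell. The background was 2.67% of all tested genes called higher and 2.31% called lower. CSPG4 and MCAM, both pericyte surface proteins, rose from means of 7.07 to 26.2 and of 3.02 to 18.8 RPKM. MYOCD, a transcription factor of smooth muscle, fell from 2.39 to 0.0573 RPKM. Their summed level ran from 115 to 2301 RPKM in ScASC libraries and from 170 to 1440 in IPFSC libraries. ACTA2, smooth muscle actin, made up most of it, and its log2 fold change was 0.16 (adjusted p = 0.983). MYH11, smooth muscle myosin, was at most 2.15 RPKM in any library. The part of such cells in the channel differences was not tested.

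Among the mechanosensitive genes, none was called apart from KCNMA1, which has been described as stretch-sensitive. PIEZO2, a stretch-gated cation channel of touch and position sense, had 6.75, 3.41, 1.68 and 6.70 RPKM in ScASCs and 8.24, 9.70, 10.5 and 9.16 in IPFSCs. The IPFSC libraries lay close together and above every ScASC library, while the ScASC libraries spread widely. The ratio of means was 2.03 and the log2 fold change 1.01 (SE 0.320, 95% interval 0.28 to 1.74), but the adjusted p was 0.134, with a range of 0.0827 to 0.305 over the alternatives. TRPV4, a channel opened by swelling and warmth, was at 3.92, 3.72, 2.38 and 1.81 RPKM in ScASCs and 3.20, 3.23, 2.63 and 2.30 in IPFSCs. Its 95% interval for the log2 fold change, -0.46 to 0.44, leaves out a change of 2-fold on this scale. TRPV2 was at 12.9 ± 0.908 and 11.5 ± 1.76 RPKM, and TRPC1, a subunit linked to store-operated and stretch-activated currents, at 5.75 ± 0.532 and 6.49 ± 1.34.

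TRPC6 is a cation channel opened by diacylglycerol and found in smooth muscle and kidney podocytes. It had 0.513, 0.343, 0.125 and 0.175 RPKM in ScASCs and 0.981, 2.35, 0.917 and 0.920 in IPFSCs. The groups did not overlap, and IPFSC library 2 stood apart. The log2 fold change was 0.80 (SE 0.215, adjusted p = 0.0780). TRPM6 and TRPM7 are channels fused to a kinase that carry magnesium and calcium. TRPM6 was at 3.80, 6.15, 6.17 and 6.08 RPKM in ScASCs and at 2.23, 1.57, 0.761 and 3.86 in IPFSCs. IPFSC library 4 reached the lowest ScASC library, and each IPFSC library was below the ScASC library of the same number.

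The log2 fold change of TRPM6 was the most negative among the 44 tested genes, -1.15 (SE 0.295, 95% interval -1.83 to -0.48, adjusted p = 0.0645). Without IPFSC library 4 it was -1.40 and passed (adjusted p = 0.0177). TRPM7 was at 10.4, 12.3, 14.2 and 13.1 RPKM in ScASCs and 13.8, 14.8, 14.7 and 17.3 in IPFSCs, higher in 4 of 4 pairs of the same number (log2 fold change 0.26, adjusted p = 0.302). KCNK2, a stretch-activated tandem-pore potassium channel, was at 0.0525 RPKM in ScASC library 3, at 0.0827 in IPFSC library 3 and at 0 in the other 6 libraries.

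The LRRC8 proteins form the anion channel that opens when cells swell, with LRRC8A obligatory and LRRC8B to LRRC8E setting what passes. LRRC8B was at 4.11, 4.44, 3.70 and 3.27 RPKM in ScASCs and 6.39, 6.19, 6.20 and 5.43 in IPFSCs. The groups did not overlap, and LRRC8B rose by 0.54 on the log2 scale (SE 0.109, 95% interval 0.29 to 0.78, adjusted p = 0.0270). The call was lost without ScASC library 3 or 4 (adjusted p = 0.0688 and 0.0671), without IPFSC library 1, 2 or 3 (0.0831, 0.0701 and 0.0880) and without the filter on low values (0.0520). LRRC8D, linked to the passage of larger organic solutes, was at 2.03, 1.65, 1.35 and 2.56 RPKM in ScASCs and 2.80, 2.88, 3.37 and 2.83 in IPFSCs. These groups did not overlap either, and the log2 fold change of 0.47 did not pass (adjusted p = 0.128).

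LRRC8A was at 68.0, 66.5, 65.8 and 81.9 RPKM in ScASCs and 62.9, 53.9, 60.0 and 59.5 in IPFSCs. Every IPFSC library was below every ScASC library, with a log2 fold change of -0.25 that did not pass (adjusted p = 0.208). LRRC8C was at 12.0 ± 6.74 and 9.08 ± 3.26 RPKM and LRRC8E at 2.81 ± 0.873 and 2.25 ± 0.196. As LRRC8A holds most of the family's RNA, the 5 genes summed to 91.2 ± 8.40 RPKM in ScASCs and 79.4 ± 4.62 in IPFSCs, although LRRC8B rose.

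No other chloride channel gene was called. CLIC2, an intracellular channel family protein that binds the ryanodine receptor, was at 52.5, 47.6, 43.3 and 54.9 RPKM in ScASCs and 34.5, 28.0, 28.6 and 42.6 in IPFSCs. Every IPFSC library was below every ScASC library, though IPFSC library 4 came within 1 RPKM of ScASC library 3. Its log2 fold change was -0.57 (SE 0.143, 95% interval -0.90 to -0.24, adjusted p = 0.0604). It passed with the replicate block (adjusted p = 0.0115) and without IPFSC library 4 (0.0160). CLIC1 was at 103, 122, 201 and 103 RPKM in ScASCs and 143, 158, 160 and 174 in IPFSCs. ScASC library 3 was above every IPFSC library and the other ScASC libraries were below them. The log2 fold change was 0.32 (adjusted p = 0.537), and 0.54 without ScASC library 3, where the call was made (adjusted p = 0.0322).

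CLCN2, an inwardly rectifying chloride channel of the cell surface, was at 1.41 ± 0.434 and 1.85 ± 0.162 RPKM (log2 fold change 0.26, adjusted p = 0.517), without overlap of the groups. The endosomal chloride-proton exchangers CLCN3 and CLCN5 were at 17.9 ± 2.32 and 18.2 ± 2.05 RPKM and at 15.8 ± 1.80 and 14.2 ± 0.191 RPKM, with log2 fold changes of 0.02 and -0.14. CLCN6, of the same endosomal group, ranged from 10.6 to 18.6 RPKM in ScASCs and from 10.3 to 18.1 in IPFSCs.

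The remaining families were low or close between the groups. P2RX4, an ATP-gated cation channel and the 1 tested gene of 6 P2X receptors, was at 16.4 ± 5.82 and 13.4 ± 2.52 RPKM. KCNRG, which hinders the assembly of KCNA channels, was at 3.63 ± 0.647 and 3.27 ± 0.759 RPKM. The 3 HCN pacemaker channel genes summed to 1.25 ± 0.522 and 0.807 ± 0.299 RPKM, and of 7 calcium channel gamma subunit genes 5 were at 0 in all libraries. None of these genes was called, and their groups overlapped.

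**Figure D4:**
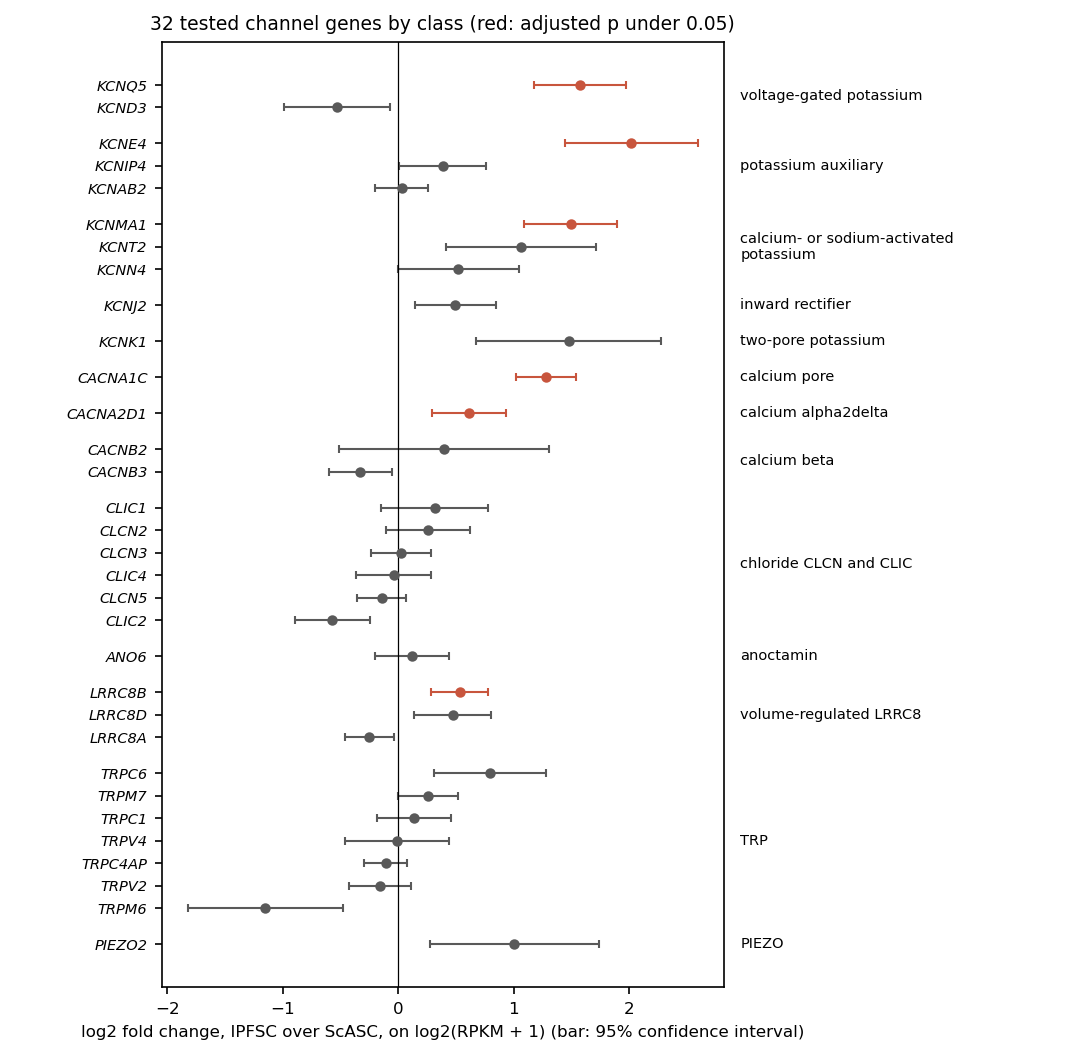
Log2 fold change of IPFSC over ScASC on log2(RPKM + 1) for 32 of the 44 tested channel genes, chosen by the rule for named genes and grouped by class, with 95% confidence intervals from limma; called genes are in red. The intervals of the 6 called genes lie wholly above 0, and TRPM6 and CLIC2 have the most negative values, -1.15 and -0.57.

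Some channel genes at no more than 7 RPKM in any library, tested or not, had values in steps that can be counted. In RPKM the value of 1 read depends only on gene length and library depth, and after correction for relative depth the values of 70 low channel genes were whole multiples of a step (largest deviation 0.00901, tolerance 0.03). The step is the largest value that divides all libraries, so these numbers are the fewest reads that could give the values. For the called gene KCNQ5 they were 41, 11, 13 and 23 steps in ScASCs and 231, 153, 157 and 134 in IPFSCs. KCNMA1 had 46 to 163 steps in ScASCs and 379 to 501 in IPFSCs. KCNK1 had 21, 6, 2 and 0 steps in ScASCs and 80, 87, 23 and 35 in IPFSCs.

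CLIC5, SCN10A and KCNK12 were chosen for mention after their values were seen. CLIC5, an intracellular channel family protein tied to the actin cortex, was listed at 0 in all 4 ScASC libraries and at 0.349, 0.436, 0.271 and 0.237 RPKM in IPFSCs, or 10 to 18 steps. SCN10A, a sodium channel of pain-sensing neurons, was at 0 in ScASCs and at 1, 3, 3 and 5 steps in IPFSCs. KCNK12 was at 0.293 ± 0.104 RPKM in ScASCs and 0.0532 ± 0.0644 in IPFSCs, in steps of 11, 6, 8 and 4 against 2, 3, 0 and 0.

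When every gene above 0 in any library was tested, 6 of 125 channel genes rose, against a background of 1.91%. Among them were CACNA1C, KCNQ5, KCNMA1 and KCNE4, and CLIC5 (adjusted p = 0.00526). SCN10A and KCNK12 did not pass (0.475 and 0.0593). Of these 125 genes, 2 (CLIC5 and SCN10A) were above 0 in all IPFSC libraries and at 0 in all ScASC libraries, and none showed the converse. Over all genes above 0 in any library these shares were 0.161% and 0.118%.

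Genes that work with these channels were counted in lists chosen by function. The background for these counts was 2.67% of all tested genes called higher and 2.31% called lower. Differences of the lists from these shares were not tested. Of 11 tested genes of store-operated and intracellular calcium release, 1 fell: ITPR2, an inositol trisphosphate receptor of the endoplasmic reticulum, was at 11.1, 10.9, 11.4 and 9.88 RPKM in ScASCs and 7.16, 6.75, 7.17 and 7.38 in IPFSCs (log2 fold change -0.54, adjusted p = 0.0077). The groups were separated by more than 2 RPKM. The list's median log2 fold change was -0.18. Of 8 tested calcium pumps and exchangers, 2 rose, and the list's median was -0.11. ATP2B1, the plasma membrane calcium pump, rose from 24.5 ± 4.72 to 39.7 ± 5.30 RPKM (log2 fold change 0.69, adjusted p = 0.0343). SLC8A1, the sodium-calcium exchanger, rose from 1.51 ± 0.973 to 5.22 ± 1.77 RPKM (log2 fold change 1.33, adjusted p = 0.04996, just under the threshold). Both calls were lost without ScASC library 2, 3 or 4 or IPFSC library 1, 2 or 3, with adjusted p of 0.0634 to 0.110 for ATP2B1 and of 0.109 to 0.142 for SLC8A1. SLC8A1 was also lost with pseudocounts of 0.1 and 0.5 (0.0597 and 0.0527) and with no filter or the filter in both cell types (0.0750 and 0.0633), and its adjusted p with the replicate block was 0.00664.

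Of 8 tested cation-chloride cotransporters and kinases that regulate them, 1 rose and 1 fell, with a median of 0.05. SLC12A2, which loads cells with sodium, potassium and chloride, rose from 15.6 ± 1.61 to 27.2 ± 5.45 RPKM (log2 fold change 0.75, adjusted p = 0.0282). This call was lost without ScASC library 2, 3 or 4 or IPFSC library 1, 2 or 3 (adjusted p = 0.0683 to 0.0949). SGK1, a kinase induced by serum and glucocorticoids that raises the amount of several channels at the membrane, was at 51.7, 95.3, 100 and 107 RPKM in ScASCs and 10.5, 10.8, 10.2 and 18.8 in IPFSCs. The lowest ScASC library was above 2 times the highest IPFSC library, and SGK1 fell by 2.71 on the log2 scale (adjusted p = 0.0013). None of 5 tested sodium-potassium pump genes passed in limma, 1 was under an unadjusted p of 0.05, and their median was 0.42.

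Of 11 tested channel regulators, 1 rose and 2 fell, with a median of -0.28. FGF13, an intracellular partner of sodium channels, rose from 1.48 ± 0.545 to 6.45 ± 1.91 RPKM (log2 fold change 1.57, adjusted p = 0.00736). STAC, an adaptor that binds L-type calcium channels, went from 11.2 ± 2.53 to 5.07 ± 1.79 RPKM (log2 fold change -1.03, adjusted p = 0.0359), and lost its call with no filter (0.0578) and without ScASC library 2, 3 or 4 or IPFSC library 1, 2 or 4 (0.0543 to 0.107). MDFIC, described in mouse as a partner of PIEZO channels, was at 59.5, 63.0, 77.1 and 76.3 RPKM in ScASCs and 39.9, 43.9, 30.7 and 53.1 in IPFSCs. It fell by 0.72 on the log2 scale (adjusted p = 0.0435), and lost its call with no filter (0.0599), with the filter in both cell types (0.0559) and without ScASC library 2, 3 or 4 or IPFSC library 1, 2 or 3 (0.0813 to 0.115). None of 8 tested mechanosensitive or polymodal channel genes outside the symbol rule, among them PKD2 and TMEM63A to TMEM63C, passed in limma. Of these, 1 was under an unadjusted p of 0.05, and the median was -0.04.

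Downstream of calcium, 1 of 14 tested calcineurin, NFAT and calmodulin kinase genes passed, with a median of 0.04. This was RCAN2, an inhibitor of calcineurin, at 16.4, 17.0, 9.98 and 9.18 RPKM in ScASCs and 120, 122, 96.1 and 29.8 in IPFSCs. IPFSC library 4 was well below the others of its group and still above every ScASC library. Its log2 fold change was 2.58 (adjusted p = 0.0126). Of 17 tested YAP and stretch response targets, 1 rose, AMOTL1, a YAP-binding scaffold protein, from 7.73 ± 1.19 to 14.2 ± 1.70 RPKM (log2 fold change 0.80, adjusted p = 0.00974), and the list's median was 0.15.

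**Figure D5:**
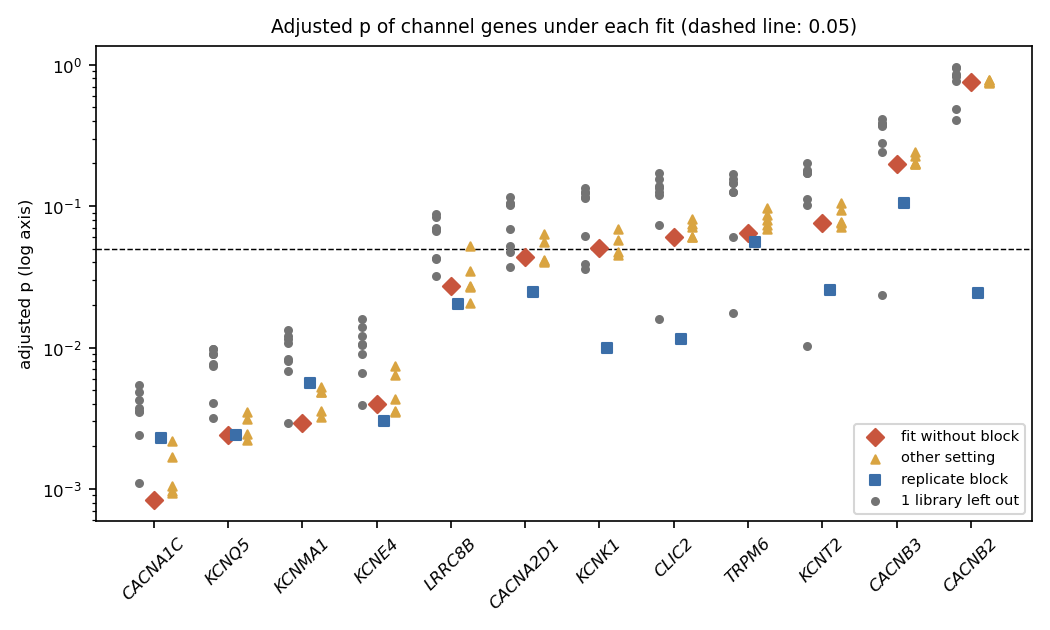
Adjusted p of 12 channel genes in the fit without a block, with the replicate block, and over the other alternatives, on a log axis, with a line at 0.05. CACNA1C, KCNQ5, KCNMA1 and KCNE4 lie past the line in each alternative that tested them, while CACNA2D1, LRRC8B, KCNK1, KCNT2 and CLIC2 lie on either side of it.

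Relative depth, read from the steps in the low values, ran from 0.825 to 1.00 over the 8 libraries and overlapped between the groups, and 14056 to 14346 genes were above 0 per library. Stromal markers summed to 12285 to 18391 RPKM in ScASCs and 8684 to 14401 in IPFSCs, and 9 of 9 were tested, so the label as stromal cells had its markers. Endothelial markers summed to at most 2.63 and 0.844 RPKM, and the neural markers SOX10 and SNAP25 were at 0 throughout, with the neuron and Schwann cell list at 0.548 to 1.04 and 0.811 to 3.51. Macrophage and leukocyte markers summed to 11.9 to 22.6 and 13.4 to 28.0 RPKM, skeletal muscle markers to 5.91 to 9.79 and 4.71 to 7.80, adipocyte markers to 18.9 to 52.5 and 39.2 to 93.6, and proliferation markers to 88.2 to 204 and 91.5 to 235. Of 4 synovial lining markers, 3 were listed with a symbol, 2 were tested and 1 was called higher, against a background of 2.67% of all tested genes. The 3, of which CLIC5 is also a channel gene, summed to 5.29 to 8.04 RPKM in ScASCs and 12.0 to 21.5 in IPFSCs. The part of these cells in the channel differences was not tested.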

How the data were processed

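The authors aligned the reads to the rabbit genome OryCun2.0 with Subread, counted them per gene with featureCounts and used edgeR for their own comparison. The kit was stranded, but whether counting used strand is not given in the sources used here, so antisense overlaps may share reads. For each gene the authors deposited 8 values, 1 per library, on what their range and steps show to be a log2(RPKM + 1) scale, with 0 written as 1e-05. Its columns with the authors' fold changes, mean levels, p-values and adjusted p-values were not used. The table had 20595 entries, and 9 identifiers listed 2 times with identical values were used once.

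Genes whose mean RPKM passed 1 in either cell type were tested with limma 3.58.1 (R 4.3.3, variance trend, 2-sided, all 8 libraries, cell type as the only term), with Benjamini-Hochberg adjustment. As the table holds no counts, limma on log values was used in place of a count model. Symbols were matched to RefSeq for 156 of the 157 channel genes. RefSeq was of another assembly (mOryCun1.1), so no coordinates are given.

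The text names every called channel gene, further tested ones in order of p up to 25, a set of mechanosensitive genes, the 10 of highest level, and up to 4 called genes per related list. Class tallies and genes outside this rule are given by their values, and a few genes are not reported here. Members and lists were chosen with earlier results of these data known.

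The study states that the depots were donor-matched, and the labels do not say which libraries share a rabbit. Deviations from the group means correlated between libraries of the same number (r = 0.534, 0.550, 0.253 and 0.660 across genes for numbers 1 to 4), all above 0.1, so the numbers were taken as pairs. The match was not exclusive: ScASC 3 correlated more with IPFSC 4 (r = 0.329) than with IPFSC 3, and ScASC 1 with IPFSC 2 at 0.335. Alternatives were pseudocounts of 0.1 and 0.5, no filter, a filter in both cell types, median-ratio scaling, the replicate block and leaving out each library. The fit was also run on simulated libraries drawn independently, without shared deviation by replicate number. That run does not address the pairing, and its outcome is not reported here. Depth in reads is not given in the sources used here.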

Additional observations from a re-analysis of the deposited data

Results flagged for a closer look

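In groups of 4 libraries, 10 of 86 groups examined had a library far from the other 3 by Dixon's criterion, which flags about 1 group in 20 by chance. Among the IPFSC libraries these were KCNMA1 in replicate 1 (5.91 RPKM, others 4.40 to 4.66), TRPC6 in replicate 2 (2.35, others 0.917 to 0.981), LRRC8D in replicate 3 (3.37, others 2.80 to 2.88) and SGK1 in replicate 4 (18.8, others 10.2 to 10.8), each the highest. Among the ScASC libraries TRPM6 and CACNB3 were lowest in replicate 1 (3.80 RPKM against 6.08 to 6.17, and 10.1 against 13.9 to 14.4). In ScASC replicate 4 LRRC8A was highest (81.9 RPKM, others 65.8 to 68.0) and CLCN2 lowest (0.771, others 1.54 to 1.68). KCNK2 was above 0 only in replicate 3 of each cell type, at 0.0525 RPKM in ScASCs and 0.0827 in IPFSCs. A gene above 0 in only 1 of 4 libraries is always flagged, so the rate of 1 in 20 does not apply to KCNK2.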

How the results depend on the processing

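CACNA1C, KCNQ5, KCNMA1 and KCNE4 were called in every alternative that tested them; CACNA2D1 and LRRC8B were lost in 8 and 6 of 14. Over all settings 4 to 9 channel genes rose. With the replicate block, which pairs libraries by number, 1 channel gene fell, and 909 of all tested genes were called in place of 562. With the filter applied to both cell types 360 were called. Leaving out single libraries gave 4 to 6 channel genes higher, 0 to 2 lower and 315 to 562 of all tested genes called. With a fold change above 2 in either direction required as well, leaving out single libraries gave 4 to 6 channel genes called. By that rule the filter in both cell types gave 3 and the replicate block 6. Besides KCNK1, KCNT2, CACNB2 and CLIC2, the block changed no call among the named genes.

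When single libraries were left out, 4 genes with log2 fold changes near 0 changed sign without being called: TRPV4 ranged from -0.16 to 0.10, CLIC4 from -0.14 to 0.054, KCNAB2 from -0.055 to 0.073 and CLCN3 from -0.038 to 0.11. Of the values of named genes under the alternatives, 506 kept their direction and side of the threshold, 51 were no longer past it, 13 were newly past it and 10 changed sign. The causes were not tested. Each group holds 4 libraries, and depth in reads is unknown, so low genes carry no counting interval.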
